A study of Homo sapiens with 2 samples.

Results

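Keratins are the intermediate filament proteins of epithelial cells. The 9 genes described here are KRT7, KRT8, KRT10, KRT15, KRT17, KRT18, KRT19, KRT23 and KRT80, keratins of simple epithelia and keratins linked to stress or to other epithelia. They were chosen by name, and a probe set was counted for a gene when the platform annotation gives that gene alone. By this rule 8 of the 9 genes had a probe set, of 19775 genes in all, with 14 probe sets together. No probe set names KRT17 alone in that annotation, so KRT17 was not analysed here. The levels were measured on 2 microarrays of HT-29 cells, an established human colorectal adenocarcinoma line: 1 array of cells transfected with a MYC-directed siRNA pool and 1 array of cells transfected with a non-targeting pool. The treatment field of the non-targeting sample reads None, whereas its protocol gives that pool, and it is called control siRNA here. The study's methods name that pool or a Silencer Select siRNA as the control. Cells seeded at 80000 per well received 20 nM siRNA for 24 h and were used after 48 h. Each siRNA was a commercial pool applied to a culture of 1 line, and no separate single siRNA was hybridised.

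Keratins form filaments only as pairs of an acidic type I and a basic type II protein. KRT8, of type II, pairs with the type I keratins KRT18, KRT19 and KRT20 in simple epithelia, and this set is the usual keratin equipment of the intestinal lining. KRT7 and KRT80 are also type II, KRT7 being known from ducts and glands and KRT80 from epithelia of many kinds. KRT10 and KRT15 are type I keratins best known from the epidermis, KRT10 from its differentiating layers and KRT15 from basal cells. KRT17 is a type I keratin induced in wounded epidermis, and KRT23 is a less studied type I keratin.

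MYC, the targeted gene, had a signal of 1640 with MYC siRNA and 1963 with control siRNA in its only probe set, a log2 ratio of -0.26. That is 1.20-fold lower and short of the 2-fold rule given below, beside an SD of 0.19 between probe sets of bright genes. The paper reports the knockdown by immunoblot of MYC protein, which the arrays do not measure. It also reports that MYC siRNA lowered cell growth and the expression of curated MYC target genes. Signals above 50, the floor used in the study's methods, were found for 16571 probe sets with MYC siRNA and 16074 with control siRNA. As a check of RNA quality, the 3' probe set of ACTB was 1.14 times its 5' probe set with MYC siRNA and 1.16 times with control siRNA. Of 12 colonic epithelial markers 9 were above 50, and the summed signal of all 12 was 21358 with MYC siRNA and 18042 with control siRNA. Of the 9 above 50, 6 were higher and 3 were lower, beside 53.5% higher of all genes above 50. KRT20 and LGALS4, a galectin of the gut lining, together differed by about as much as the sums did. LGALS4 had 3056 with MYC siRNA and 1771 with control siRNA, 1.72-fold higher. CDH17 exceeded 50 with MYC siRNA only, so that its side was set by the filter. Of the 8 markers above 50 on both arrays, 5 were higher and 3 lower, beside 51.7% higher of all such genes. The part of these markers in the keratin values was not tested. EPCAM had 4512 and CDH1 3310 with MYC siRNA, against 5156 and 2957 with control siRNA. CDX1, CDX2 and GPA33, also on that list, were under 50 on both arrays. Of 8 fibroblast markers only COL1A1 exceeded 50, at 78.9 with MYC siRNA and 94.7 with control siRNA, and no endothelial marker did. Of the immune markers with a probe set only LYZ did, and it was bright, at 6854 with MYC siRNA and 6077 with control siRNA. The leukocyte marker PTPRC was at 3.70 with MYC siRNA and 1.69 with control siRNA.

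With MYC siRNA, none of the listed genes, called the keratin genes here, passed the 2-fold rule of the study in either direction. KRT19, KRT80 and, by less, KRT8 stood on the higher side. KRT15 did too, but it was above 50 with MYC siRNA only, so that its side was set by the filter. The rule sets signals under 50 to 50 and calls a gene an UP DEG where the MYC siRNA signal is at least 2 times the control siRNA signal, and a DOWN DEG where it is at most 0.5 times. Of the 7 keratin genes above 50 in at least 1 array, 0 were UP and 0 were DOWN, beside 2.73% UP and 0.695% DOWN of all 8917 genes above 50. At 1.5-fold, KRT19 alone was higher and none was lower, beside 10.4% higher and 5.72% lower of all genes. A count of 0 among 7 genes is therefore near the background. With 1 array per condition there is no replicate check and no p-value. In its place, the spread between probe sets of the same gene is given, an SD of the log2 ratio of 0.27 in dim, 0.22 in middle and 0.19 in bright genes, which leaves out variation between cultures. In RNA from whole cultures, fewer cells expressing a keratin and less of its RNA per cell cannot be told apart.

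Levels of different probe sets cannot be set against each other, since probes differ in how strongly they bind, so each keratin is compared with itself between the arrays.

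KRT8, the type II keratin of simple epithelia, had a signal of 9306 with MYC siRNA and 8243 with control siRNA. The log2 ratio was 0.18, 1.13-fold higher and below 1 SD between probe sets of bright genes. After quantile normalization the log2 ratio of KRT8 was 0.33 and after loess 0.37, both above that SD. KRT18, its main type I partner and its neighbour in the gene order of chromosome 12, had 9158 with MYC siRNA and 9363 with control siRNA. This log2 ratio of -0.03, 1.02-fold lower, was also within that SD, and its sign changed to 0.10 after quantile normalization and 0.17 after loess on mean signal. Both are read by a single probe set of a kind (_x_at) that can also bind related transcripts, so neither has a second reading. They were also near the top of the range: 1 probe set was brighter than that of KRT8 with MYC siRNA and 60 with control siRNA, and 4 were brighter than that of KRT18 with MYC siRNA and 14 with control siRNA. Whether the upper end of the signal range compressed these ratios was not tested.

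KRT19, a type I keratin that also pairs with KRT8, differed more. Its signal was 5649 with MYC siRNA and 3720 with control siRNA, which is 1.52-fold higher, a log2 ratio of 0.60. This is over 3 times the SD between probe sets of bright genes, and 9.87% of all genes above 50 had a ratio at least as high. When the genes above 50 were split into 5 groups by signal, the median log2 ratio was -0.10 in the brightest group, to which KRT19 belongs, and 0.15 in the dimmest. A second probe set naming KRT19 was at 4.23 with MYC siRNA and 1.49 with control siRNA, far under the floor, and gave no reading. Averaging both probe sets, with the dim one counted as unchanged, moved the log2 ratio of KRT19 to 0.30. The log2 ratio of KRT19 exceeded that of KRT18 by 0.63 and that of KRT8 by 0.43, differences which a common scaling factor between the arrays cannot change. After loess they were 0.59 and 0.39, and when probe sets were averaged, the dim one of KRT19 counted as unchanged, they were 0.33 and 0.13.

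KRT20, the type I keratin that marks differentiated cells of the intestinal lining, is not among the 9 genes but shares the partner KRT8. It had 7034 with MYC siRNA and 4973 with control siRNA, 1.41-fold higher (log2 ratio 0.50).

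**Figure D1:**
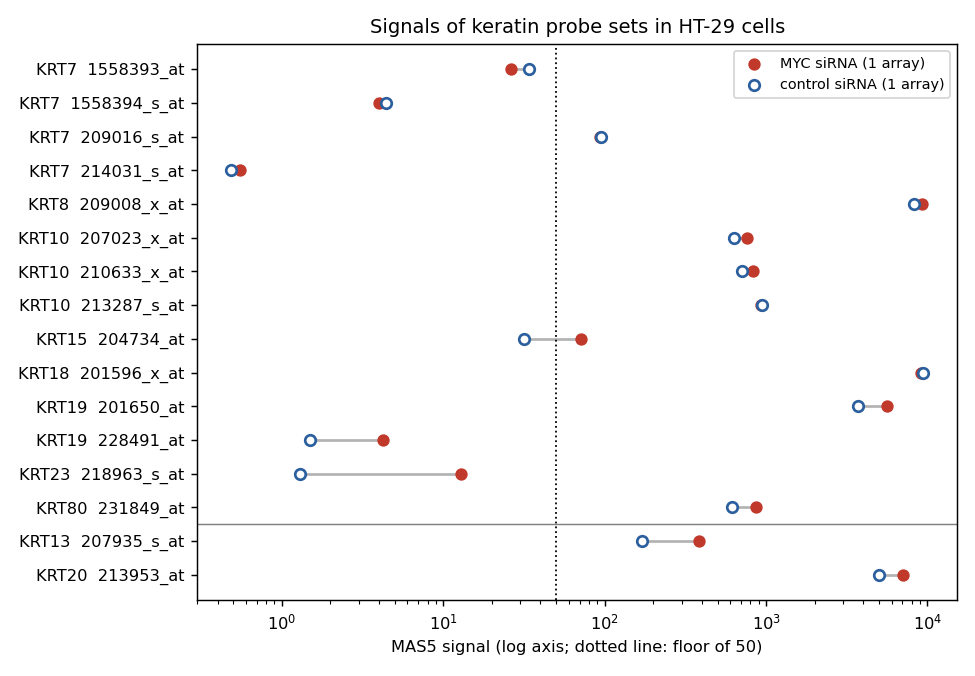
MAS5 signal (x axis, log) of each of the 14 probe sets of the keratin genes and, under the line, of KRT13 and KRT20; filled red points are the MYC siRNA array, open blue points the control siRNA array, and the dotted line is the floor of 50. KRT19 (5649 with MYC siRNA, 3720 with control siRNA) is apart between the arrays while KRT18 (9158 and 9363) is not, and 5 of the 14 probe sets lie under the floor on both arrays.

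KRT7, the type II keratin of ducts, was read above 50 by 1 of its 4 probe sets, at 94.1 with MYC siRNA and 95.2 with control siRNA. That is a log2 ratio of -0.02, within the SD of dim genes. The other KRT7 probe sets were under 50 on both arrays, the highest of them at 26.4 with MYC siRNA and 33.8 with control siRNA. KRT80, the next gene to KRT7 on chromosome 12 and also of type II, had 867 with MYC siRNA and 618 with control siRNA. It was 1.40-fold higher, a log2 ratio of 0.49 and 2.64 times the SD between probe sets, and 14.3% of all genes had a ratio at least as high. Its single probe set is of the kind designed for 1 transcript (_at).

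KRT10, the epidermal type I keratin, had 3 probe sets above 50, which did not all point the same way. The brightest had 930 with MYC siRNA and 945 with control siRNA, a log2 ratio of -0.02. The others had 757 and 830 with MYC siRNA, against 633 and 712 with control siRNA, 1.20-fold and 1.17-fold higher. Their mean log2 ratio was 0.15 ± 0.15 (SD, n = 3 probe sets), so the direction of KRT10 is unsettled. KRT15, of basal epidermal cells, was at 70.9 with MYC siRNA and at 31.6, under the floor, with control siRNA. It was at least 1.42-fold higher, a bound set by the floor. With a floor of 25 its log2 ratio was 1.17 and it became the 1 listed keratin gene past 2-fold. KRT23 was under the floor on both arrays, at 12.9 with MYC siRNA and 1.30 with control siRNA, and no fold is given.

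The median log2 ratio of the 7 keratin genes above 50 was 0.18, beside 0.03 for all genes above 50, with 4 higher and 3 lower where 53.5% of all genes were higher. KRT15 was above 50 with MYC siRNA only, so that its side was set by the filter. Without it, 3 of 6 keratin genes were higher and 3 were lower, and the median was 0.08, beside 0.02 and 51.7% higher for the 8277 genes above 50 on both arrays. The 3 lower ones, KRT7, KRT10 and KRT18, were each within 1 SD of the probe sets of like genes. KRT10 and KRT18 turned higher after quantile normalization and after loess, which gave 6 higher and 1 lower. The share of all genes higher after these scalings was not computed. Of the 9 probe sets of the keratin genes above 50, 6 were higher and 3 lower. None passed 2-fold, beside 2.29% UP and 0.582% DOWN of all 15298 probe sets above 50 that name 1 gene.

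**Figure D2:**
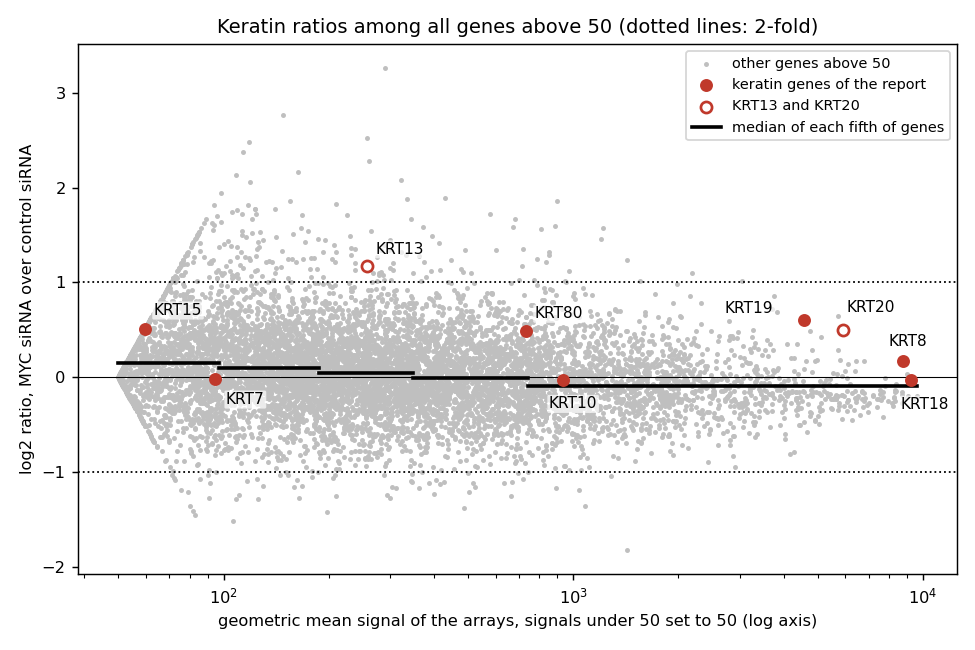
Log2 of the MYC siRNA signal over the control siRNA signal (y axis) against the geometric mean signal of the arrays (x axis, log) for each gene above 50, with keratin genes in red, KRT13 and KRT20 as open circles, the medians of 5 groups by signal as black bars and dotted lines at 2-fold. All 7 keratin genes lie between the dotted lines and KRT13, at 1.17, lies above; the black bars fall to -0.10 in the brightest group.

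A probe set named 36 other keratin genes, and 34 of them stayed under 50 on both arrays, among them KRT5 and KRT14, the keratins of basal squamous cells. The exceptions were KRT20 and KRT13. KRT13, a type I keratin of stratified mucosa such as the oesophagus, had 385 with MYC siRNA and 171 with control siRNA, 2.25-fold higher and an UP DEG. Its single probe set is of a kind (_s_at) that may bind more than 1 transcript, so KRT13 has no second reading. In the gene order of chromosome 17, KRT13, KRT15 and KRT19 are direct neighbours. Their log2 ratios were 1.17, at least 0.50 and 0.60, the side of KRT15 being set by the filter. KRT36 and KRT9, which flank these genes, were under 50 on both arrays and gave no ratio. Whether gene position bears on these values was not tested. KRT23, next to KRT20, gave no ratio.

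The RefSeq promoter table (GRCh38.p14) held 2 of the 9 genes, KRT8 and KRT10, and KRT20. The 250 bases before the start of KRT10, whose probe sets differed in direction, and of KRT20, which was 1.41-fold higher, are shown to set 2 type I keratins of the same chromosome side by side. Both lie on the minus strand, KRT10 at chr17:40822615-40822864 and KRT20 at chr17:40885243-40885492. Capitals mark matches to any of 3 motifs searched on both strands: CACGTG, the E-box that MYC binds with MAX, TATAAA, the TATA box, and TGANTCA, which AP-1 factors bind.
KRT10: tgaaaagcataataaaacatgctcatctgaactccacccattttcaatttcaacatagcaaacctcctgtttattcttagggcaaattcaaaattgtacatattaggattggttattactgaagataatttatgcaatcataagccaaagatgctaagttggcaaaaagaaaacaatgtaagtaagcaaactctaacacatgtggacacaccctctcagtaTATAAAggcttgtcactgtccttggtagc
KRT20: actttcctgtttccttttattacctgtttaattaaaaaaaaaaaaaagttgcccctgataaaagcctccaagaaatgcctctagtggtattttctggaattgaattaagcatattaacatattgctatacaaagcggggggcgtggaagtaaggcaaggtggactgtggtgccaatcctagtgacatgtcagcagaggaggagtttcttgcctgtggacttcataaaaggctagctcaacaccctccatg
The single match was TATAAA in KRT10, beginning 29 bases before the start, a motif found in 11.1% of 27305 RefSeq windows of the same length. CACGTG and TGANTCA, found in 6.49% and 6.6% of windows, had no match in KRT10, KRT20 or KRT8, the KRT8 window lying at a start inside that gene. These counts describe letters in the windows only.

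Keratin filaments are tied to desmosomes, the cell junctions that link filaments of neighbouring cells, through desmoplakin, plakoglobin, plakophilins and plakins. Of 20 such genes, 13 were above 50, of which 11 were higher, 2 were lower and none passed 2-fold, with a median log2 ratio of 0.27 beside 0.03 for all genes, of which 53.5% were higher and 2.73% UP. One of the 11, the plakin EVPL, was above 50 with MYC siRNA only, at 61.4 with MYC siRNA and 44.8 with control siRNA, at least 1.23-fold higher. Without EVPL, 10 of 12 genes were higher and the median was 0.21. All genes above 50 on both arrays had a median of 0.02, with 51.7% higher. Among the listed genes with a brighter-array signal of 100 or more, the plakins PPL, DST, PLEC and EPPK1, which crosslink filaments, had the largest ratios in their brightest probe sets. PPL had 609 with MYC siRNA and 440 with control siRNA, 1.39-fold higher. PLEC had 293 with MYC siRNA and 220 with control siRNA, 1.33-fold higher, and its second probe set was 1.48-fold higher. EPPK1 was 1.30-fold, 1.29-fold and 1.02-fold higher in its 3 probe sets. DST was 1.38-fold and 1.40-fold higher in 2 probe sets and 1.62-fold lower in the third, so its direction is unsettled. The core desmosomal genes DSP and DSG2 had log2 ratios of -0.05 and 0.08.

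Hemidesmosomes anchor keratins to the basement membrane, and all 4 genes of the 7 listed that had a probe set were above 50 and higher (median log2 ratio 0.39, beside 0.03 for all genes, of which 53.5% were higher and 2.73% UP). ITGB4, the integrin chain that binds plectin, had 578 with MYC siRNA and 266 with control siRNA, 2.17-fold higher, and its other probe set was 2.56-fold higher. LAMB3, a chain of laminin-332, had 428 with MYC siRNA and 278 with control siRNA, 1.54-fold higher. CD151 and, in its brightest probe set, ITGA6 were 1.11-fold and 1.08-fold higher, both within the SD between probe sets of bright genes. The other ITGA6 probe set was 1.20-fold higher, a log2 ratio of 0.27, which is above that SD.

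Among 20 genes above 50 whose products are known to bind or modify keratins, 14 were higher, 6 were lower and 1 was UP, with a median log2 ratio of 0.29, beside 53.5% higher and 2.73% UP of all genes and their median of 0.03. After quantile normalization or loess, 18 were higher and 2 lower, with medians of 0.26 and 0.29, beside 0.01 and 0.03 for all genes. The share of all genes higher after these scalings was not computed, so the counts of 18 and 2 have no background. PPL and EPPK1, counted above with the desmosome genes, were counted here too. TGM2, a transglutaminase that crosslinks proteins, had 618 with MYC siRNA and 107 with control siRNA, 5.76-fold higher, and its other probe sets were 2.19-fold and 1.91-fold higher. SQSTM1, the autophagy receptor found with keratin in Mallory-Denk bodies, had 2534 with MYC siRNA and 1630 with control siRNA, 1.55-fold higher, and 2.06-fold higher in a second probe set. TRADD, an adaptor of TNF receptor signalling, was 1.49-fold higher in 1 probe set and 1.05-fold lower in the other.

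Of 16 intermediate filament genes that are not keratins, only the nuclear lamins were above 50. LMNB1 had 1648 with MYC siRNA and 1986 with control siRNA, 1.21-fold lower, LMNB2 was 1.02-fold lower (log2 ratio 0.01 after loess) and LMNA was 1.13-fold higher. VIM, the filament of mesenchymal cells, was at 16.8 with MYC siRNA and 12.6 with control siRNA.

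**Figure D3:**
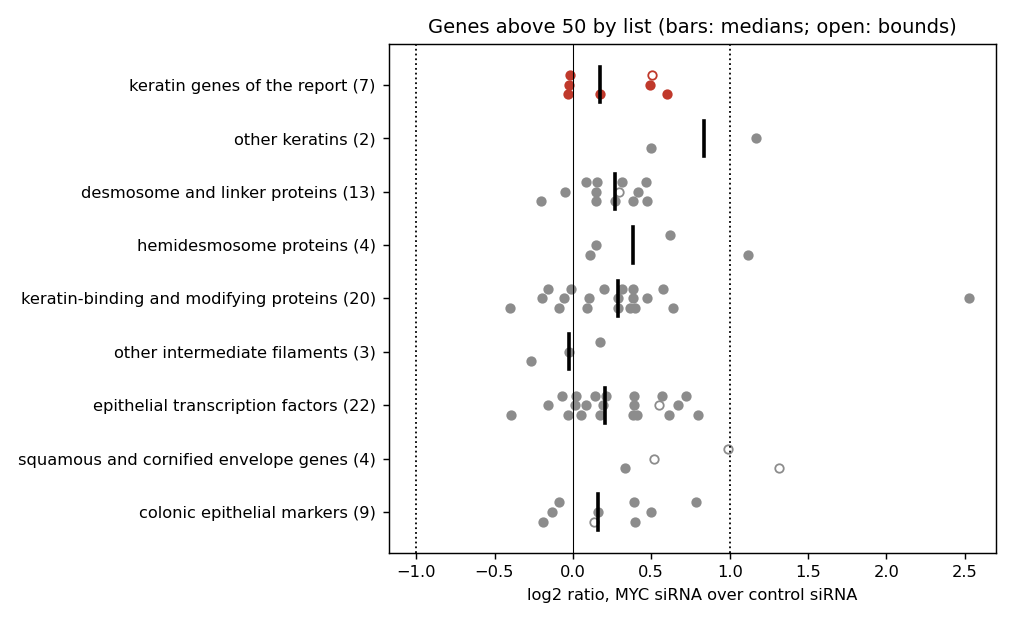
Log2 of the MYC siRNA signal over the control siRNA signal (x axis) for each gene above 50, by list, with the number of genes in brackets, bars at list medians, dotted lines at 2-fold and open circles for lower bounds set by the floor (no bar where most points are bounds); the vertical scatter of points only separates them. The keratin genes (red) span -0.03 to 0.60 with a median of 0.18, and TGM2 is the point at 2.53.

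Of 22 epithelial transcription factors above 50, 18 were higher, 4 were lower and none passed 2-fold (median log2 ratio 0.20, beside 0.03 for all genes, of which 53.5% were higher and 2.73% UP). After quantile normalization 16 were higher and 6 lower, and the share of all genes higher was not computed there. One of the 18, TFAP2C, was above 50 with MYC siRNA only. Without TFAP2C, 17 of 21 genes were higher and the median was 0.19, beside 0.02 and 51.7% higher for all genes above 50 on both arrays. The AP-1 genes JUND, FOSL2 and FOS were 1.73-fold, 1.65-fold and 1.59-fold higher. Of the other AP-1 genes on the list, JUN was 1.31-fold higher, whereas JUNB had 151 with MYC siRNA and 168 with control siRNA, and FOSL1 had 132 with MYC siRNA and 174 with control siRNA, log2 ratios of -0.16 and -0.39. STAT3 was 1.53-fold higher in its brightest probe set and 1.22-fold and 1.36-fold higher in the others. The other probe sets of JUND were near the floor at 1.18-fold and 1.17-fold, and those of FOSL2 were 1.69-fold and 1.10-fold higher. KLF4 and GRHL1, regulators of epithelial differentiation, had log2 ratios of 0.02 and 0.08.

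Of 15 squamous genes, 4 were above 50. Of these, SPRR1A, SPRR1B and SPRR3 were above 50 with MYC siRNA only, so that their side was set by the filter, and no median is given. SPRR1B, a precursor of the cornified envelope, had 124 with MYC siRNA and 34.1, under the floor, with control siRNA, at least 2.49-fold higher. SCEL, the 1 gene of the list above 50 on both arrays, had 388 with MYC siRNA and 307 with control siRNA, 1.26-fold higher. Of the 6 squamous cell markers with a probe set only KRT13 exceeded 50, the summed signal of the 6 being 428 with MYC siRNA and 187 with control siRNA, with KRT5, KRT14 and IVL under 50 on both arrays. SPRR genes resemble each other closely, so their probe sets may share transcripts.

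**Figure D4:**
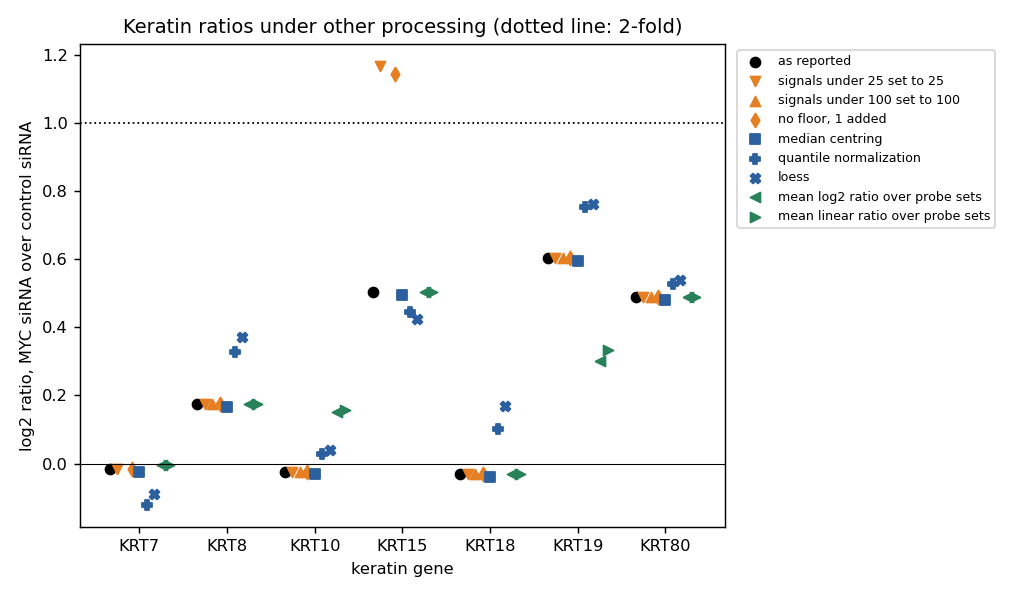
Log2 of the MYC siRNA signal over the control siRNA signal (y axis) for the 7 keratin genes above 50 (x axis) as reported (black) and under other floors (orange), scalings (blue) and averages over probe sets (green), with a dotted line at 2-fold. KRT15 passes the line with a floor of 25 or none, KRT19 spans 0.30 to 0.76 and KRT80 0.48 to 0.54.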

How the data were processed

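RNA of HT-29 cells with MYC siRNA and with control siRNA was hybridised to 1 Affymetrix U133 Plus 2.0 array each. The authors deposited intensity values, MAS5 signals on a linear scale from affy 1.40.0, scaled to a target level of 100. Leaving out 2% of probe sets at either end, their mean was 100 on both arrays. The signals carry no floor or logarithm and, beyond the scaling to 100, no normalization between arrays.

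Of 54675 probe sets, the platform annotation gives 1 gene for 41097, several for 1801 and none for 11777. Symbols were updated through gene identifiers to RefSeq of GRCh38.p14, which held 19734 of 19775 genes. Signals under 50 were set to 50, as in the study's methods, log2 of the MYC siRNA signal over the control siRNA signal was taken, and a gene took its brightest probe set by mean signal. Where 1 array was under 50 the fold is a lower bound, and where both were, none is given. No test was possible with 1 array per group, and the number of arrays limits the precision. The SD between probe sets was taken over 4040 genes with several above 50.

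The keratin genes, the gene lists and the markers were chosen with earlier results of these data known. Named are MYC, the keratin genes with every probe set, other keratins above 50, and up to 4 genes of each list with the largest ratio and a brighter-array signal of 100 or more; further genes were named after their values were seen. The calculation was tested on simulated data. Alternatives were floors of 25 and 100, no floor with 1 added, quantile normalization, median centring, loess (span 0.3), thresholds of 1.5-fold and 3-fold, omission of _s_at and _x_at probe sets, which may bind more than 1 transcript, a brighter array of at least 100, and averages across the probe sets of a gene, those under the floor counted as unchanged, and, added after seeing the data, genes above 50 on both arrays only. Python 3.11.15, numpy 2.4.6, pandas 2.3.3, statsmodels 0.14.6 and matplotlib 3.10.9 were used. Arrays of drug treatments were not used here.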

Additional observations from a re-analysis of the deposited data

How the results depend on the processing

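No paired analysis was possible because each condition has 1 array. Of the 9 genes, the number past 2-fold was 0 lower under every alternative tried and 0 higher under all but those that follow. It was 1 higher with a floor of 25 and 1 higher with no floor and 1 added, KRT15 in both, and 1 higher at 1.5-fold, KRT19; the count of keratin probe sets was also 1 in each of these. The median log2 ratio of the keratin genes was 0.50 without _s_at and _x_at probe sets, which left KRT15, KRT19 and KRT80 only. In its other alternatives it lay between 0.17 and 0.37, except for 0.08 over the 6 genes above 50 on both arrays, an alternative chosen after seeing the data. Among single genes, KRT15 had a log2 ratio of 1.17 with a floor of 25 and 1.14 with none. KRT19 was at 0.30 and 0.33 when its probe sets were averaged as log2 or as linear ratios. KRT8 and KRT18 were at 0.37 and 0.17 after loess. KRT80 stayed between 0.48 and 0.54 over 10 alternatives. Only the scalings and the added 1 could move it, since it has a single _at probe set well above every floor tried.

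Over the whole table, 375 probe sets were UP and 104 DOWN. The UP count was 640 with a floor of 25, 184 with a floor of 100, 620 with no floor and 219 without _s_at and _x_at probe sets, where 52 were DOWN. At 1.5-fold 1563 were higher and 998 lower, and at 3-fold 53 were higher and 1 lower. Each alternative moved the median of all genes by less than 0.1. Signals under 50 set the limit for KRT15 and KRT23, and single probe sets that can bind related transcripts set it for KRT8 and KRT18.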
